A study of Homo sapiens with 12 samples.

Results

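The loci of 10 genes of the epithelial to mesenchymal transition (EMT) were examined for PS-727-STAT3 and BCL9 peaks in DCIS.COM cells, a basal-like human breast cancer cell line used as a model of ductal carcinoma in situ. The genes were SNAI1, SNAI2, ZEB1, ZEB2, TWIST1, VIM, CDH1, CDH2, FN1 and TGFB2, 10 of 20090 protein-coding genes of the annotation. These 10 genes were chosen by name, with earlier results of these data known. A locus was the gene body with 20 kb on each side, in hg19, and its members were the peak pairs with their midpoint inside it. A peak pair is a pair of opposite-strand exonuclease borders that ChIP-exo leaves on the sides of a cross-linked protein. In all, 2101 of 2591856 peak pairs in 11 lists lay in the 10 loci, which together span 1400.0 kb.

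The groups were 2 libraries of BCL9 KD cells and 3 of non-silencing (NS) control cells precipitated with the antibody against PS-727-STAT3 (STAT3 phosphorylated on a serine of its transactivation domain), 2 of BCL9 KD and 3 of NS control cells precipitated with the antibody against BCL9, and 1 CTCF library of NS control cells. The knockdown was by a single lentiviral shRNA to BCL9, all groups share the cell line, serum-containing medium and formaldehyde cross-linking, and the labels call the replicates biological. The IgG library was not analysed here, so no background level of the same kind stands beside the values. The KD lists held 415624 and 493174 PS-727-STAT3 peak pairs against 98665 to 374089 in NS control lists, and 95586 and 336493 BCL9 peak pairs against 24728 to 148755. Because the lists differ in length, the main counts use the 24728 strongest pairs of each, the length of the shortest, which is called equal length below. The weakest PS-727-STAT3 pair kept had 22 and 24 tags (whole units of a list's signal) in KD lists and 8 to 19 in NS control lists. For BCL9 it had 10 and 12 tags in KD lists and 5 to 10 in NS control lists, and for CTCF 60. NS control BCL9 replicate 2, the shortest list, was used whole. Sequencing depth was not analysed here, and the lists do not show whether BCL9 protein was reduced. Counts and tags were not corrected for the copy number of a locus, and the paper reports amplification of BCL9 in DCIS.COM cells by FISH.

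In EMT, epithelial cells give up cell-cell junctions and take on a motile, matrix-producing state. SNAI1, SNAI2, ZEB1, ZEB2 and TWIST1 are transcription factors that start it, the first 4 of these largely by repressing CDH1 through E-box sequences. CDH1 encodes E-cadherin of epithelial junctions, whereas CDH2 (N-cadherin), VIM (the intermediate filament vimentin) and FN1 (the matrix glycoprotein fibronectin) are mesenchymal markers. TGFB2 is a secreted TGF-beta ligand that can induce the programme. STAT3 is a transcription factor that is phosphorylated on a tyrosine and on this serine, and BCL9 is best known as a co-activator of beta-catenin.

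Regions held by at least 8 of the 10 PS-727-STAT3 and BCL9 lists lay in introns of, upstream or downstream of TGFB2, CDH1, FN1 and VIM, among others, and 6 of them are shown because the values below turn on them. Each is 200 bp of the GRCh37 plus strand round the median midpoint of the libraries. Capitals mark strings found on either strand, namely AP-1 TGANTCA, C/EBP TTGCNNAA, TEAD GGAATG, the E-box CAGGTG and TCF/LEF CTTTGAA or CTTTGAT. The first 4 are the leading regions of their loci, the regions held by most libraries. The last 2 were added after their values were seen. The leading region of SNAI2 and the promoter region of VIM, which had more PS-727-STAT3 tags than the upstream region of VIM shown here, are described without their sequences.
TGFB2 chr1:218550745-218550944 (+): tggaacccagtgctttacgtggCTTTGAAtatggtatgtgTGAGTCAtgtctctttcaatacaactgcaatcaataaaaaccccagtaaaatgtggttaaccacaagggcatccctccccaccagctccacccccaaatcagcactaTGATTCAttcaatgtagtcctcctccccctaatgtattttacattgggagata
CDH1 chr16:68778733-68778932 (+): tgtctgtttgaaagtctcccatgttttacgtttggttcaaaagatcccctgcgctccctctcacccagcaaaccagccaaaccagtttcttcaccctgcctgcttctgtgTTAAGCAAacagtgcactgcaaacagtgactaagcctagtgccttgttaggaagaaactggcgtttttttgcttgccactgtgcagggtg
FN1 chr2:216275696-216275895 (+): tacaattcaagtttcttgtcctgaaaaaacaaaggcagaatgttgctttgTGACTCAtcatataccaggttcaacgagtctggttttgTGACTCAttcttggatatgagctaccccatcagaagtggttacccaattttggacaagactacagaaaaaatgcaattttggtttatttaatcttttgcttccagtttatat
VIM chr10:17258257-17258456 (+): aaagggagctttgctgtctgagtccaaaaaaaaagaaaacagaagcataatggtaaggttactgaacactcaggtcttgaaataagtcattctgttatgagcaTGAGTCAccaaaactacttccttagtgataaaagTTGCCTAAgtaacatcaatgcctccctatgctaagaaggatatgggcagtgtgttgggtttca
CDH1 chr16:68790234-68790433 (+): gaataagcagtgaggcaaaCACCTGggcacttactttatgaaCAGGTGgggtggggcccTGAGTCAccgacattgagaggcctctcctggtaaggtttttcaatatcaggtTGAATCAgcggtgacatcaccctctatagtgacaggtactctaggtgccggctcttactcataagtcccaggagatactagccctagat
TGFB2 chr1:218599664-218599863 (+): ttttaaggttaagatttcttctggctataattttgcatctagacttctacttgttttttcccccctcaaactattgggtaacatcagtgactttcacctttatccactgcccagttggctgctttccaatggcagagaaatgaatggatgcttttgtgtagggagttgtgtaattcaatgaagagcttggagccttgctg
The TGFB2 intron 1 window held a pair of AP-1 strings and a TCF/LEF string. The FN1 window held the same AP-1 string, TGACTCA, at both of its sites, and the VIM window held an AP-1 and a C/EBP string. The CDH1 window chr16:68790234-68790433 held a pair of E-boxes beside a pair of AP-1 strings, while the CDH1 window chr16:68778733-68778932 held a C/EBP string alone. The TGFB2 intron 2 window held none of these strings.

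Peak pairs were concentrated at the ligand, the 2 matrix or filament markers and CDH1. As at most genes, they were few or missing at 4 of the 5 transcription factors. TGFB2 had 11 and 13 PS-727-STAT3 pairs at equal length in KD lists, against 12, 13 and 14 in NS control lists. CDH1 had 9 and 6 in KD lists, against 8, 7 and 7 in NS control lists. FN1 had 3 and 8 in KD lists, against 6, 9 and 5 in NS control lists. All 5 lists held pairs at each of these loci, and KD and control values overlapped. VIM had 6 and 2 pairs in KD lists, against 5, 2 and 3 in NS control lists, in the shortest of these 4 loci.

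Per 100 kb of locus the PS-727-STAT3 density over the 5 lists was highest at TGFB2, with 9.05 ± 0.819 pairs (SD, n = 5). It was 7.29 ± 3.68 at VIM, 5.36 ± 2.06 at FN1 and 5.35 ± 0.825 at CDH1, and each neighbour in this order overlapped the next. Over all genes the median density was 0 and the mean 1.05, and 97.2% of genes lay below TGFB2, 96.2% below VIM, 94.5% below FN1 and 94.4% below CDH1. SNAI2, with 3.17 ± 4.42, came next, but its pairs came from 2 lists only. TWIST1 (0.293 ± 0.655), ZEB1 (0.159 ± 0.356), ZEB2 (0.102 ± 0.227) and the mesenchymal cadherin CDH2 (0.0702 ± 0.157) each had pairs in 1 of 5 lists, and SNAI1 in none. Such low values are common, since 59.5% of all genes had no PS-727-STAT3 pair in these lists. Below TWIST1 lay 67.3% of genes, below ZEB1 62.7%, below ZEB2 60.9% and below CDH2 60.3%.

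**Figure D1:**
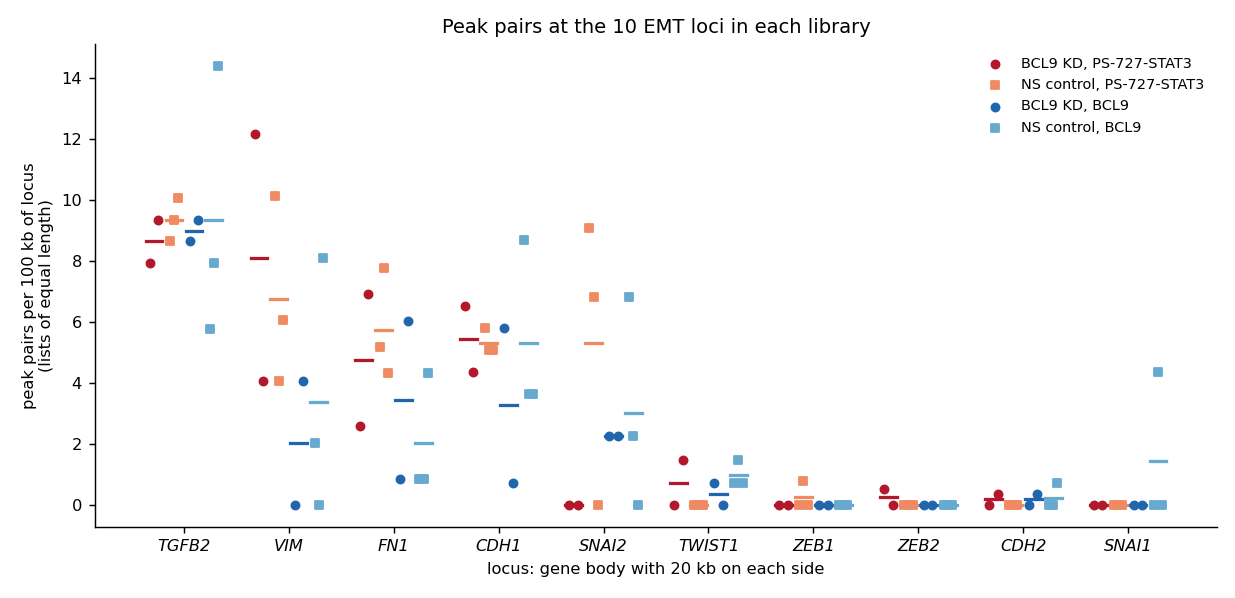
PS-727-STAT3 and BCL9 peak pairs per 100 kb of locus (y axis) in lists of equal length at the 10 loci (x axis), ordered by mean PS-727-STAT3 density. Points are libraries and lines are group means; TGFB2 is highest for both antibodies, and 4 of the 5 EMT transcription factors lie near 0.

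The BCL9 antibody had its highest density at the same locus. TGFB2 had 12 and 13 BCL9 pairs at equal length in KD lists, against 8, 11 and 20 in NS control lists, a density of 9.19 ± 3.19 over 5 lists that 97.5% of genes lay below. CDH1 followed with 4.48 ± 2.96, from 8 and 1 pairs in KD lists against 12, 5 and 5 in NS control lists. VIM (2.84 ± 3.39), SNAI2 (2.72 ± 2.48) and FN1 (2.59 ± 2.45) came next, with neighbours again overlapping. SNAI1 had 2 pairs in a single NS control list, TWIST1 had 1 or 2 pairs in 4 lists, CDH2 had pairs in 2 lists, and ZEB1 and ZEB2 had none. Over all genes the median BCL9 density was 0.294 and the mean 1.25, and 39.5% of genes had no BCL9 pair.

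For each gene the difference of the antibodies was tested by exact permutation of the 5 PS-727-STAT3 and 5 BCL9 lists (252 assignments, two-sided, smallest p 0.00794), with Benjamini-Hochberg adjustment over 13260 genes with a pair. None of the 10 loci passed, and neither did any gene, with 0% called in the direction of PS-727-STAT3 and 0% in the direction of BCL9. At an unadjusted p under 0.05 the same exact test gave 0 of the 10 loci and 2175 of the 13260 genes. With all listed pairs per 100000 it gave 2 of the 10 loci and 2510 of 20011 genes. FN1 had 6.2 PS-727-STAT3 and 3.0 BCL9 pairs on average (exact permutation p = 0.111, adjusted 0.55), and VIM had 3.6 and 1.4 (exact permutation p = 0.119, adjusted 0.581). At TGFB2 the averages were 12.6 and 12.8.

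In BCL9 KD cells no locus had more or fewer pairs than in NS control cells without overlap of the libraries. For PS-727-STAT3 this was 0 of 10 loci above and 0 of 10 below. Of the 8128 genes with a pair in any of the 5 lists, 5.19% lay above and 5.07% below. For BCL9 it was 0 above and 0 below, beside 4.99% and 3.41% of 12153 such genes. SNAI1 had no PS-727-STAT3 pair at equal length, and ZEB1 and ZEB2 no BCL9 pair, so these loci could not separate. The exact permutation test of 2 against 3 lists has a smallest p of 0.1, so no gene could reach 0.05. Its p ranged between 0.4 and 1.0 over the loci for PS-727-STAT3 and between 0.6 and 1.0 for BCL9, with an adjusted p of 1.0 for each locus tested. SNAI2 had 0 PS-727-STAT3 pairs in both KD lists and 4, 3 and 0 in NS control lists, and the third control list kept the groups overlapping. For PS-727-STAT3 the KD and control values of TGFB2 did not overlap under some other settings, for which no share of all genes was computed. With 50 kb on each side at equal length TGFB2 was lower in KD lists. Among all listed pairs its PS-727-STAT3 count was higher, 90 and 104 in KD lists against 46, 29 and 87 in NS control lists. Per 100000 listed pairs it was lower, 21.7 and 21.1 in KD lists against 38.7, 29.4 and 23.3 in NS control lists, and per 100000 pairs of at least 9 tags it was also lower, so its direction depends on the scaling to list length.

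The difference between the antibodies in the KD effect was tested by permuting the condition within each antibody, and the lowest exact permutation p was 0.12, at TWIST1, with an adjusted p of 1.0 at each locus.

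The windows of 100 bp round all listed pairs of the 10 lists merged into 771 regions at these loci. Of these, 615 were held by 1 library, 23 by at least 6, 10 by at least 8 and 3 by all 10. TGFB2 had 4 of the regions in at least 8 libraries, CDH1 had 3, and SNAI2, VIM and FN1 had 1 each. Thus 5 of 10 loci had such a region, beside 23.9% of all genes. A longer locus has more room for a region. The 10 loci span 44.1 kb (SNAI2) to 285.0 kb (CDH2), and the share of all genes was not matched for length. Of the 23 regions in at least 6 libraries, 17 lay in introns and 2 held a CTCF window. All 7 such regions of CDH1 lay in intron 2, and 7 of the 9 of TGFB2 lay in an intron.

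**Figure D2:**
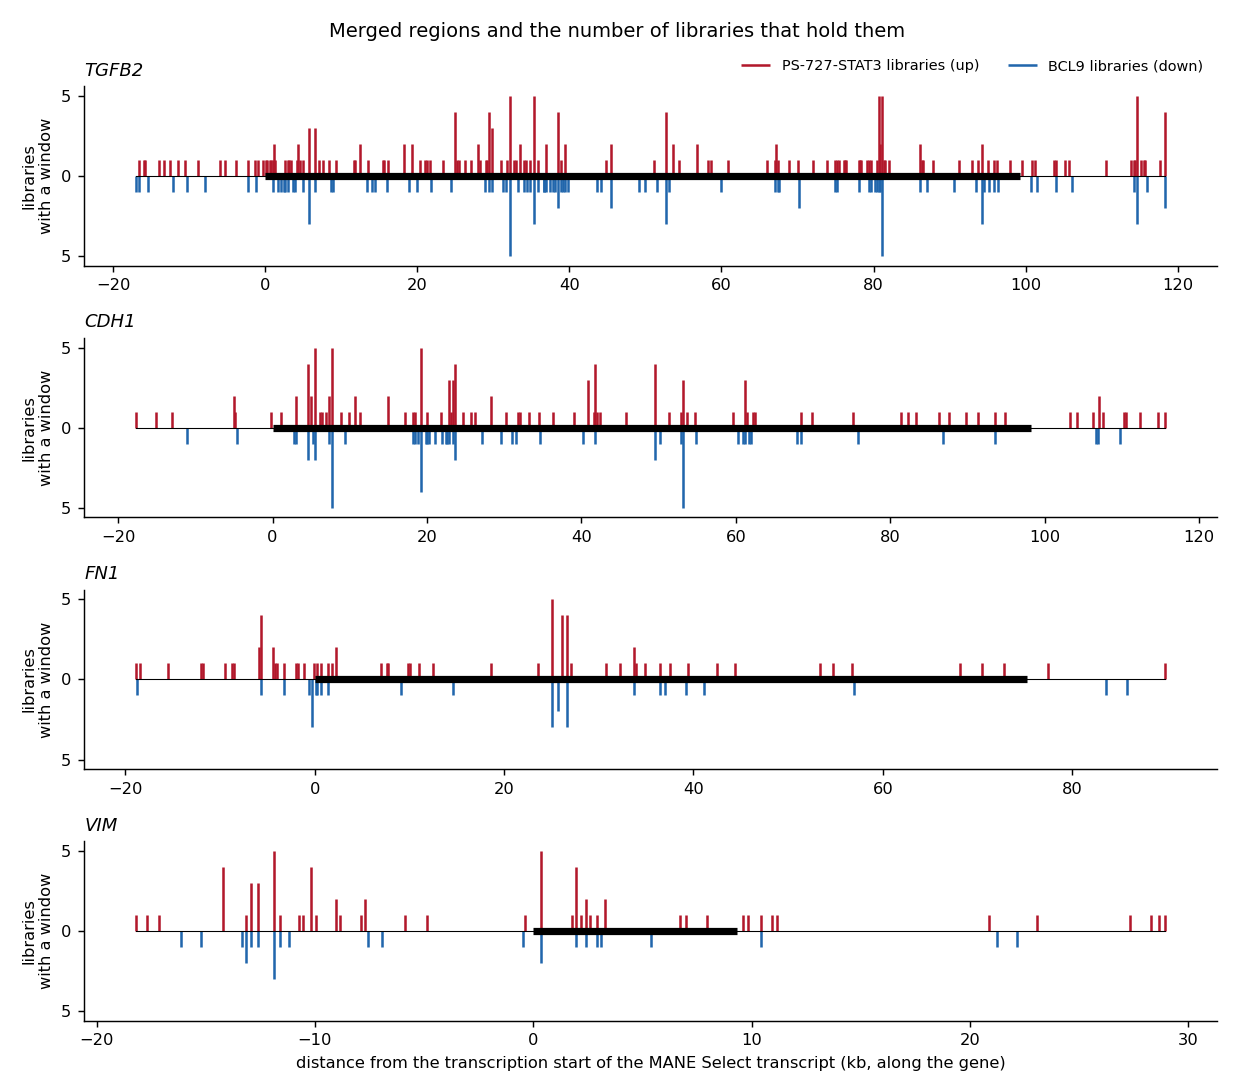
Merged regions at TGFB2, CDH1, FN1 and VIM by distance from the transcription start in kb (x axis), with the number of PS-727-STAT3 libraries drawn upward and of BCL9 libraries downward (y axis). The thick line is the MANE Select transcript; the regions held by all 10 libraries lie in introns of TGFB2 and CDH1.

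TGFB2 had 2 of the 3 regions held by all 10 libraries, and its leading one was chr1:218550588-218551167 in intron 1, 32199 bp from the start of the MANE Select transcript. Its strongest PS-727-STAT3 pair had 51 and 95 tags in KD lists, against 24, 48 and 42 in NS control lists. Its strongest BCL9 pair had 73 and 62 tags in KD lists, against 14, 16 and 38 in NS control lists. Tags are not corrected for depth, so positions in the list are given too. The BCL9 pair stood at rank 58.5 and 130.5 in KD lists, against 960.5, 3479.5 and 1295.5 in NS control lists, where ties share a mean rank. As a percentile of the list this was 0.0612% and 0.0388% in KD lists, against 3.35%, 14.1% and 0.871% in NS control lists. Thus the KD lists placed this region nearer the top on both scales, while its PS-727-STAT3 ranks overlapped.

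The second TGFB2 region in all 10 libraries, chr1:218599664-218599959 in intron 2, had 30 and 28 PS-727-STAT3 tags in KD lists, against 6, 9 and 34 in NS control lists. Its BCL9 tags were 42 and 32 in KD lists, against 9, 18 and 39 in NS control lists. A further region in intron 1 (chr1:218553638-218554326) and one downstream of the gene (chr1:218633163-218633620) were held by 8 libraries each. The locus also takes in part of RRP15, a ribosome biogenesis gene.

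CDH1 had its leading region at chr16:68778705-68779131, 7723 bp from the start. It had 24 and 10 PS-727-STAT3 tags in KD lists, against 7, 24 and 14 in NS control lists. Its BCL9 tags were 15 and 13 in KD lists, against 9, 16 and 22 in NS control lists, and both sets overlapped. A stronger region for PS-727-STAT3 was chr16:68790107-68790654, 19185 bp from the start, with 73 and 96 tags in KD lists against 20, 18 and 59 in NS control lists. It stood at rank 980.0 and 449.5 in KD lists, against 4912.5, 4241.0 and 1349.0 in NS control lists. Its percentile was 0.236% and 0.0911% in KD lists, against 4.13%, 4.3% and 0.361% in NS control lists, so KD lists were nearer the top on both scales. For BCL9 the same region had 8 and 10 tags in KD lists, against 8, 0 and 10 in NS control lists. The CDH1 locus also takes in parts of CDH3 (P-cadherin) and TANGO6.

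FN1 had its leading region at chr2:216275302-216276124, centred in intron 13 and 25078 bp from the start. It had 37 and 41 PS-727-STAT3 tags in KD lists, against 29, 36 and 38 in NS control lists. It stood at rank 7797.5 and 6955.5 in KD lists, against 1603.0, 665.0 and 5009.5 in NS control lists. Its percentile was 1.88% and 1.41% in KD lists, against 1.35%, 0.674% and 1.34% in NS control lists, so KD lists were further from the top on both scales, by a small margin on the second. For BCL9 it had 18 and 25 tags in KD lists and 0, 0 and 21 tags in NS control lists. Part of ATIC, an enzyme of purine synthesis, lies in the locus.

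VIM had its leading region upstream of the gene, at chr10:17258165-17258576, at -11870 bp from the start. It had 20 and 15 PS-727-STAT3 tags in KD lists, against 12, 11 and 19 in NS control lists. It stood at rank 30552.0 and 56661.5 in KD lists, against 15571.0, 13028.0 and 24379.0 in NS control lists, further from the top in KD lists, while its percentiles overlapped. VIM was also the locus with PS-727-STAT3 pairs at the promoter in every list, within 1 kb of a start. These promoter pairs numbered 12 and 9 in KD lists, against 5, 3 and 8 in NS control lists, among all listed pairs. The lists differ in length, and the region nearest the start, chr10:17270258-17270884, stood at overlapping ranks of 7797.5 and 8494.0 in KD lists and 8615.5, 10822.0 and 7837.0 in NS control lists. Its percentile was 1.88% and 1.72% in KD lists, against 7.24%, 11.0% and 2.09% in NS control lists, nearer the top in KD lists on that scale alone. BCL9 pairs at the VIM promoter numbered 1 and 3 in KD lists and 0 in each of the 3 NS control lists.

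For promoters, windows were merged within 1 antibody and condition, a region had to hold windows of both KD lists or of at least 2 NS control lists, and its centre had to lie within 1 kb of a start. By this rule PS-727-STAT3 had a promoter region in KD cells at 3 of 10 genes (VIM, SNAI2 and ZEB1), beside 25.4% of all genes. The SNAI2 region was centred at -985 bp, close to the 1 kb limit, and KD replicate 2 had 0 pairs with a midpoint inside that limit. In NS control cells it was present at 1 of 10 (VIM), beside 16.0%. For BCL9 it was present at 0 of 10 in KD cells, beside 12.0% of genes, and at 0 of 10 in NS control cells, beside 5.67%. The BCL9 pairs that both KD lists had at the VIM promoter did not overlap one another as windows, so they made no region by this rule. No test was run on these counts.

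The remaining loci had weaker regions. SNAI2 had a region on chromosome 8, at -13065 bp from its MANE Select start, with 11 and 17 PS-727-STAT3 tags in KD lists and 12, 12 and 18 in NS control lists. TWIST1 had a region in 6 libraries, CDH2 one in 7 libraries downstream of the gene, ZEB2 one in 5, and ZEB1 one in 4 at -827 bp from its MANE Select start. SNAI1 had a region in 3 libraries, at -456 bp from its start, which also held a CTCF pair of 10 tags. The annotated TWIST1 gene body spans 96.6 kb and its MANE Select transcript 2.17 kb, and HDAC9 lies partly in the locus.

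CTCF, a chromatin architecture factor, was measured in a single library. Its strongest pair had 135 tags at TGFB2, 120 at TWIST1 and 106 at SNAI2, and 55 at CDH1 and 9 at ZEB2. At equal length TGFB2 had 5 CTCF pairs, SNAI2 had 4, SNAI1, TWIST1 and VIM had 2 each, FN1 had 1, and CDH1, CDH2, ZEB1 and ZEB2 had 0.

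Regions of PS-727-STAT3 in 2 libraries of a condition that overlapped such a region of BCL9 were called shared. In KD cells 14 shared regions lay in 4 of 10 loci, 7 at TGFB2, 4 at CDH1, 2 at CDH2 and 1 at FN1, beside 30.0% of all genes with a shared region. In NS control cells 7 shared regions lay in 5 of 10 loci, 2 each at TGFB2 and CDH1 and 1 each at SNAI2, VIM and FN1, beside 19.4%. The requirement was 2 of 2 libraries in KD and 2 of 3 in control cells, and the shares of all genes were not matched for locus length. The PS-727-STAT3 KD lists are longer than all control lists of that antibody. For BCL9, KD replicate 1 is shorter than NS control replicate 3 (95586 against 148755 pairs). At equal length the count was 3 in KD cells, at TGFB2 and FN1, and 3 in NS control cells, at TGFB2 and VIM. Without NS control BCL9 replicate 1 the control count was 4, and without replicate 3 it was 3.

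Among regions held by all 5 lists of an antibody, the KD and control ranks were set side by side. For PS-727-STAT3 there were 12 such regions at the loci. By rank, 1 stood nearer the top in KD lists without overlap, beside 8.41% of all such regions, and 4 stood further from the top, beside 17.4%. By percentile the balance was the opposite, with 5 nearer, beside 31.8%, and 1 further, beside 0.854%. KD and control lists differ in length, so both scales were required next. On rank and percentile together, 1 stood nearer the top (CDH1, chr16:68790107-68790654), beside 8.41%, and 1 further from the top (FN1, chr2:216275302-216276124), beside 0.854%. For BCL9 there were 4 such regions. By rank 1 stood nearer the top, beside 8.12%, and 1 further, beside 16.6%. By percentile 2 stood nearer, beside 27.2%, and 0 further, beside 1.14%. On both scales 1 stood nearer (TGFB2 intron 1), beside 7.26%, and 0 further, beside 1.01%. These regions were singled out because their lists did not overlap, so no test is given.

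**Figure D3:**
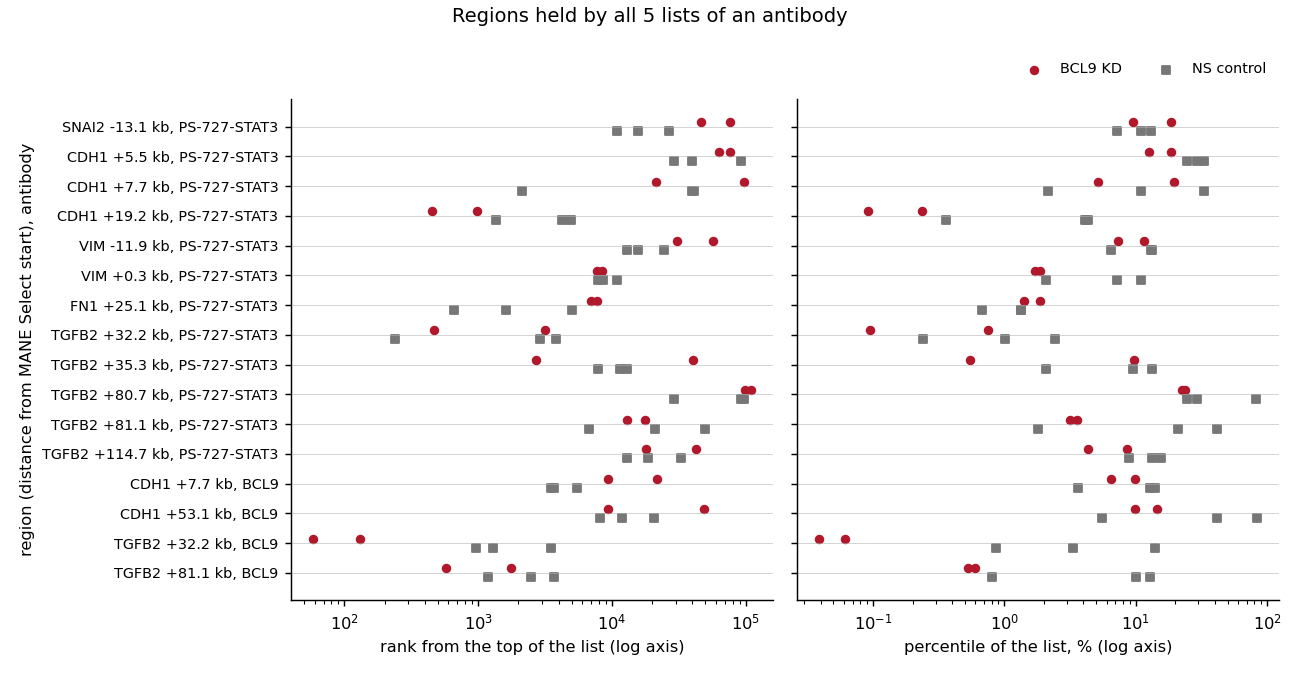
Rank from the top (left, log axis) and percentile of the list in % (right, log axis) of the strongest pair in each region held by all 5 lists of an antibody; rows are regions by distance from the transcription start. Points are libraries; the BCL9 pairs of TGFB2 intron 1 stand at 58.5 and 130.5 in BCL9 KD and 960.5 to 3479.5 in NS control.

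The strings in the regions were compared with all regions of the same kind. Of the 23 regions in at least 6 libraries, 11 held the AP-1 string (47.8%), beside 48.7% of 23180 regions genome-wide. The STAT3 string TTCCNGGAA was in 0 of 23, beside 1.26%. The E-box CAGGTG, the string bound by SNAI and ZEB factors, was in 4 of 23 (17.4%), beside 18.5%. C/EBP was in 3 (13.0%), beside 17.9%, TEAD in 4 (17.4%), beside 21.3%, and TCF/LEF in 3 (13.0%), beside 6.93%. These shares are descriptions of few regions, and a match is not a binding site.

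Other genes of the programme were described by lists. A shared region in control cells was present at 19.4% of all genes, a share not matched for locus length. Of 21 epithelial genes, 7 had one, with a median PS-727-STAT3 density of 1.08 pairs per 100 kb, and KRT19 was densest with 28.2 ± 11.5 (SD, n = 5), followed by CLDN4 and GRHL1. Of 21 mesenchymal genes and EMT factors, 6 had one, with a median of 0.519. S100A4, a calcium-binding protein of motile cells, was densest with 65.8 ± 15.3, and AXL was also among the densest. The loci of the list genes also have 20 kb on each side, and other genes inside them are not given here. Of 12 TGF-beta pathway genes, 5 had one, with a median of 0.468. SMAD3, a transducer of TGF-beta receptors, had 29.6 ± 4.89 and 14 shared regions, followed by TGFBR2 and LTBP1. The 10 genes themselves had a median of 1.73. In the antibody comparison 0 genes of these lists passed the adjusted exact permutation test. For KD against control, the PS-727-STAT3 pairs did not overlap at 2 epithelial genes above and 0 below, and at 1 mesenchymal gene above and 1 below. Among TGF-beta pathway genes it was 1 above and 0 below. In the same order, 15, 13 and 8 genes of these lists had a PS-727-STAT3 pair. Of the 8128 genes with a pair, 5.19% lay above and 5.07% below. For BCL9 the counts in the same order of lists were 1 above and 0 below, 2 above and 0 below, and 0 above and 1 below. A BCL9 pair was present at 18, 14 and 8 of these genes, and the shares were 4.99% and 3.41% of 12153 such genes.

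Marker loci of the cell type were counted too, and peaks are not expression. The 6 basal mammary marker genes had a median of 8.86 PS-727-STAT3 pairs per 100 kb and the 8 genes of other tissues a median of 0. Both lists had exceptions. The basal genes KRT14, with 0 pairs, and ITGB4, with 0.784 ± 1.17, held no shared region in NS control cells. PTPRC (4.53 ± 1.43) and CDH5 (1.02 ± 1.4), a leukocyte and an endothelial gene, held shared regions.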

How the data were processed

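ChIP-exo was carried out in DCIS.COM cells, and 11 lists of peak pairs were analysed, 1 per library. The deposited lists give a signal per peak pair, computed by the authors. Dividing it by the smallest unit of its library gives whole tags. The origin of that unit and the aligner are not given in the sources used here. A tag in the files names a peak-pairing program, while bcl2fastq and hg19 are named in the submitters' processing notes. All pair positions lay within GRCh37 chromosome lengths.

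Genes came from GENCODE v44 lifted to GRCh37. Pairs became 100 bp windows, merged where they overlapped. At the end of an equal-length list of 24728 pairs, ties in signal were taken in a random order with fixed seed. Motif strings were searched in 200 bp, where 100 bp had been planned. Replicates were taken as labelled, with group comparisons by exact permutation tests. Alternatives were list length, a minimum of 9 tags, 5 or 50 kb, leaving out libraries and the replicate block. Those added after seeing the data were weighted ties, the MANE Select body, the percentile scale, the rank alternatives and those for KD shared regions. The members and lists were chosen with earlier results of these data known. All 10 members and their leading regions are named by rule; the others are said to be added. A further gene that the rule for the lists would name is not reported here. Tests were checked on simulated data. The software was matplotlib 3.10.9, scipy 1.17.1, pandas 2.3.3 and numpy 2.4.6 under Python 3.11.15.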

Additional observations from a re-analysis of the deposited data

How the results depend on the processing

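At no locus did the antibodies pass the adjusted exact test under any of the settings run. The smallest exact p of 5 against 5 lists is 0.00794. Over 13260 genes a pass therefore needs a large share of them near that value, so this outcome says little about a single locus. The replicate block of 5 antibody pairs cannot give an exact p under 0.05, so no gene could pass in that setting. At an unadjusted exact p under 0.05 the test gave 0 loci as reported, beside 2175 of 13260 genes. It gave 2 loci with all listed pairs per 100000, beside 2510 of 20011 genes, and 3 with at least 9 tags, beside 2023 of 16511. With 5 kb on each side it gave 2, beside 1504 of 10544 genes, and with 50 kb 1, beside 3107 of 16013. When 1 library was left out it gave 0 to 1, beside 1963 to 2546 genes. With all listed pairs the exact permutation p was 0.00794 at VIM and 0.0397 at FN1, and the lowest adjusted p of this test over all genes was 0.221. The count of loci where KD and control did not overlap was 0 as reported and moved as follows. The share of all genes without overlap was computed only for the counts as reported. The loci named below are therefore not set apart from other genes. With all listed pairs, as a number per 100000, it was 1 below for PS-727-STAT3 (TGFB2) and 2 above for BCL9 (ZEB1 and FN1). With at least 9 tags, per 100000 such pairs, it was 2 above (ZEB2 and TWIST1) and 2 below (CDH1 and TGFB2) for PS-727-STAT3, and 1 below for BCL9 (TGFB2). With 50 kb on each side it was 1 below for PS-727-STAT3 (TGFB2), and with tied pairs weighted 1 below for BCL9 (TWIST1). Leaving out 1 library gave 0 to 3 above and 0 to 2 below for PS-727-STAT3, and 0 to 1 above and 0 to 2 below for BCL9. With 1 KD library left, the groups separate more easily by construction. Within the replicate block, both numbers had the same sign below at 2 loci for PS-727-STAT3 (SNAI2 and FN1), and at 1 above (TGFB2) and 1 below (CDH1) for BCL9, with a smallest p of 0.5. Same-numbered libraries did not deviate together at equal length (correlations 0.0 to 0.02). These correlations rest on few libraries per group and do not show whether same-numbered libraries shared a preparation or run.

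The 7 control shared regions in 5 loci became 3 regions in 2 loci at equal length and in all 3 libraries, 30 regions in any library, and 5 kb on each side left 3 loci. Leaving out 1 library gave 3 to 7 regions in 2 to 5 loci. The 14 KD shared regions in 4 loci became 3 in 2 at equal length, and 79 in 10 with any library. On the percentile scale the log2 rank ratio of control over KD turned to 0.18 at the VIM upstream region, 0.75 at the TGFB2 region starting at 218599205 (both PS-727-STAT3) and 0.13 at the CDH1 leading region (BCL9). The causes were not tested.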
